A study of Mus musculus with 24 samples.

Results

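Voltage-gated calcium channels were followed through 10 of their subunit genes in the afferent nerve (AN) and efferent nerve (EN) fibres of the lumbar spinal roots of the mouse. The 10 genes, out of 24813 gene symbols represented in the series, were Cacna1a, Cacna1b, Cacna1c, Cacna1d, Cacna1e, Cacna1g, Cacna1h, Cacna1i, Cacna2d1 and Cacna2d2, found on the array by the gene name that its probes carry. Together they held 38 of 56605 gene probes, of which 27 could be tested, and each gene was represented by its probe with the highest mean over the 24 arrays. The mice were untreated C57BL/6 animals at birth (P0) or at 1, 3 or 5 weeks of age (1 W, 3 W, 5 W), and fibres of segments L4-L6 were dissected apart into dorsal (AN) and ventral (EN) bundles, which gave 8 groups of 3 arrays. All groups shared the strain and the segments, no gene was altered in any of them, and no group was a control other than by age or fibre. Fibres of several animals went into 1 tube per group, and although the methods speak of independent experiments, no array is tied to an animal, so the p values below measure the spread between these arrays, which may be technical.

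A voltage-gated calcium channel is built around a pore-forming α1 subunit, which senses the membrane voltage and lets calcium into the cell. In the types other than the T-type, an intracellular β subunit and an extracellular α2δ subunit help carry the pore to the membrane. The α1 genes fall into families: the P/Q-, N- and R-type channels that trigger transmitter release at nerve terminals, the L-type channels that couple depolarisation to contraction, secretion and gene expression, and the T-type channels that open near the resting potential and shape repetitive firing. Sensory axons of a spinal root arise from cell bodies in the dorsal root ganglion and motor axons from those in the ventral horn. Most neuronal mRNA therefore lies outside the root proper, whereas Schwann cells, fibroblasts and vessels of the root contribute their own transcripts.

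Values are log2 normalised signals from the authors' quantile-normalised table, so a difference of 1 is a doubling and levels of different probes are not comparable. All 24 arrays were of the expected kind, with 55.1 to 71.7% of gene spots well above background and no saturated spot. The labelled tissue carried its defining transcripts, since all 9 markers of myelinating Schwann cells were well above background on every array of all 8 groups, whereas markers of neuronal cell bodies varied strongly. One array stood apart. In the AN array of 3 W numbered 3, Rbfox3, which encodes the neuronal nuclear protein NeuN, measured 13.42 against 9.99 and 9.93 in the other AN arrays of that age, and the summed signal of 15 sensory neuron markers in that group ran from 40180 to 332100. Summed skeletal muscle markers in the same group ran from 15490 to 175000. limma gave this array the lowest quality weight of the 24, 0.216. The next lowest were 5 W arrays, AN 3 (0.3098), EN 3 (0.3339) and AN 2 (0.3533). Main-probe results that rest on the array that stood apart are given with and without it. So are the differences of related genes called higher in AN at 3 W. Counts, medians, changes of a fibre difference since P0, values of other probes and r values include that array.

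**Figure D1:**
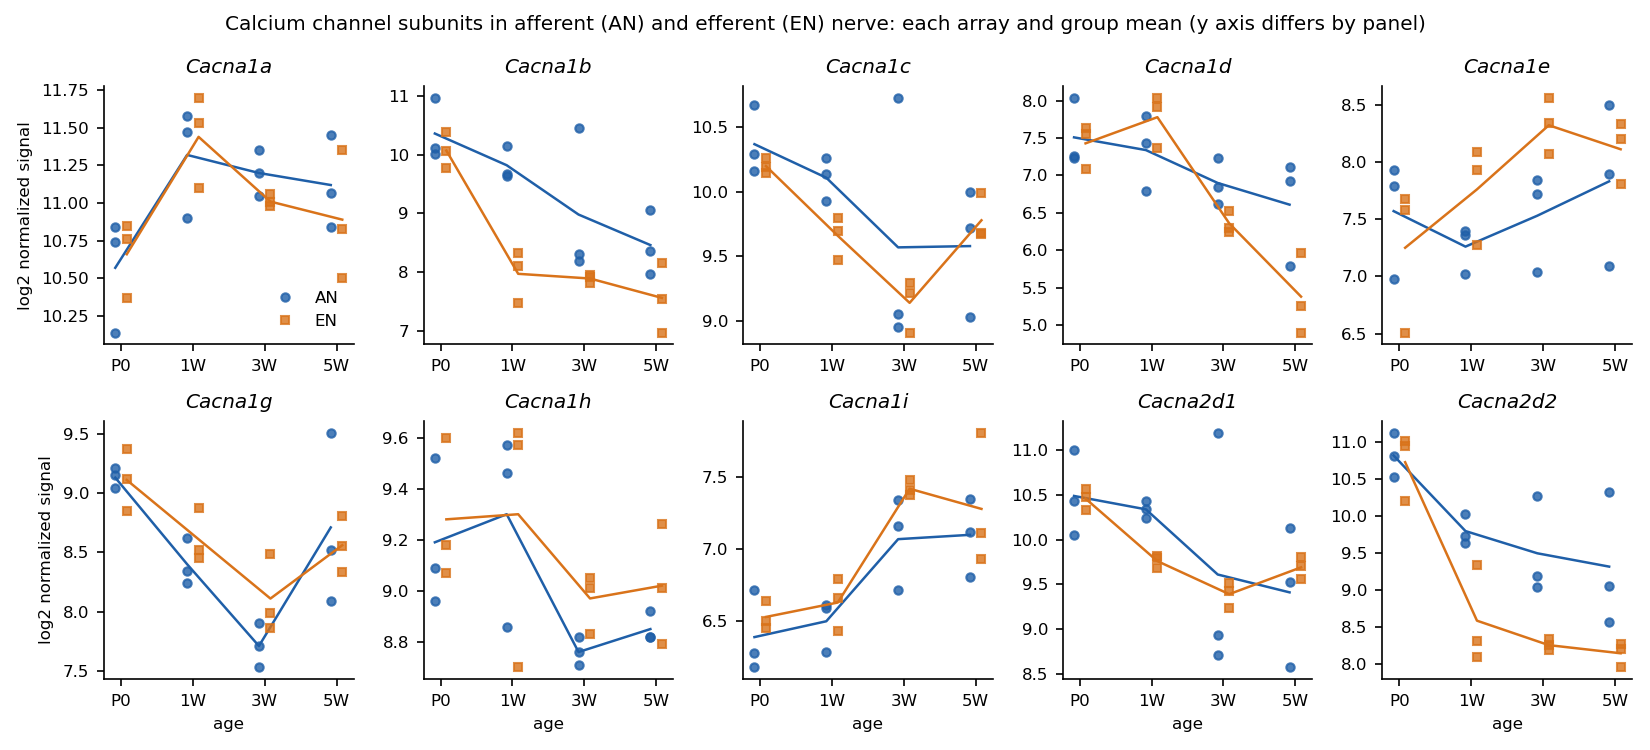
Log2 normalised signal (y axis, a separate range in each panel) of the 10 subunits by age (x axis) in AN (blue circles) and EN (orange squares); each point is 1 array and the lines join the means of 3 arrays. Cacna1b and Cacna2d2 start near 10 to 11 in both fibres at P0 and are below 8.5 in EN at 5 W. AN array 3 of 3 W is the highest array of its group for Cacna1a, Cacna1b, Cacna1c, Cacna2d1 and Cacna2d2.

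The first question was whether sensory and motor fibres differ in these channels. At P0 they could not be told apart: none of the 10 subunits was called, none reached an unadjusted p below 0.05 in limma, and 0.739% of all tested probes were called. At 1 W AN held more Cacna1b than EN, and this was the 1 subunit of 10 called, where 4.0% of all probes were called (2.74% of all probes higher in AN). At 3 W no subunit was called against 5.89% of all probes, with 3 at an unadjusted p below 0.05. At 5 W Cacna1d was the 1 subunit called, also higher in AN, against 6.76% of all probes (3.52% of all probes higher in AN). A call here is a Benjamini-Hochberg adjusted p below 0.05 in the limma fit over 36409 probes. Same-numbered AN and EN arrays lay on the same slide and deviated together, and with the replicate number as a block Cacna2d2 was also called higher in AN at 1 W, 3 W and 5 W and Cacna1e lower in AN at 3 W, which brought the counts to 2 of 10 at each of these ages, where the block raised the share of all probes called to 10.8, 21.1 and 23.5%. On the log2 scale the 10 subunits had a median AN-EN difference of 0.05 (P0), -0.06 (1 W), 0.2 (3 W) and -0.01 (5 W), beside 0.01, -0.06, -0.03 and -0.03 over all tested probes. The 3 W median includes the array that stood apart, and its sign rests on that array.

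**Figure D2:**
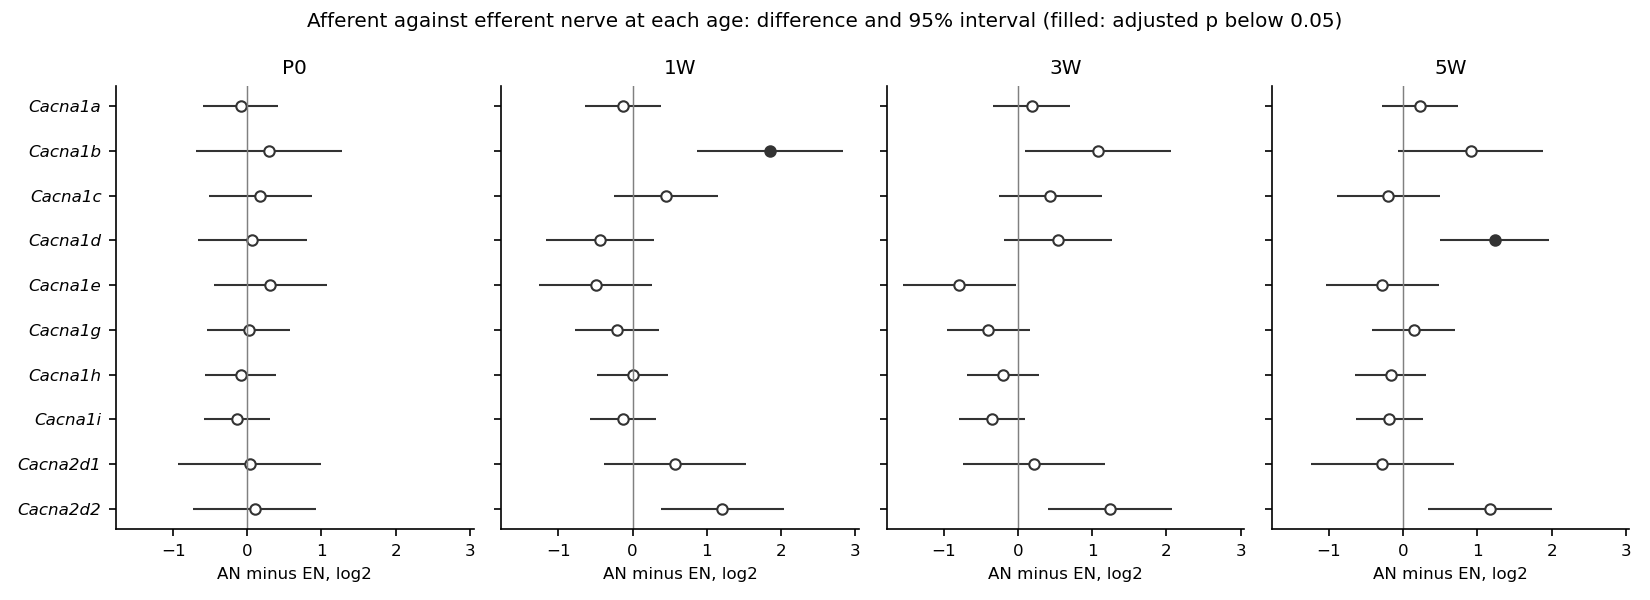
Difference of AN minus EN on the log2 scale (x axis) for each subunit in 1 panel per age; points are estimates from 3 against 3 arrays, lines 95% confidence intervals, and filled points have an adjusted p below 0.05 without the block. At P0 every interval spans 0, and the filled points are Cacna1b at 1 W (1.85) and Cacna1d at 5 W (1.24), while Cacna2d2 lies between 1.17 and 1.24 at each later age with open points.

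The second question was how the channels change as the roots mature, and here EN and AN both moved away from P0. In EN, 3 of 10 subunits were called at 1 W, with Cacna1a higher and Cacna1b and Cacna2d2 lower, beside 27.1% of all probes (15.5% higher and 11.6% lower). At 3 W 7 of 10 were called, with Cacna1e and Cacna1i higher and Cacna1b, Cacna1c, Cacna1d, Cacna1g and Cacna2d2 lower, beside 55.0% of all probes (29.0% higher and 26.0% lower). At 5 W 4 of 10 were called, with Cacna1i higher and Cacna1b, Cacna1d and Cacna2d2 lower, beside 54.1% (28.2% higher and 26.0% lower). In AN, 1 of 10 was called at 1 W (Cacna1a, higher, beside 21.7% of all probes called and 12.3% of all probes called higher), 5 at 3 W (Cacna1a and Cacna1i higher, Cacna1b, Cacna1g and Cacna2d2 lower, beside 51.7%, that is 26.8% higher and 24.9% lower) and 4 at 5 W (Cacna1i higher, Cacna1b, Cacna1d and Cacna2d2 lower, beside 50.6%, that is 26.4% higher and 24.2% lower). These shares of the subunits were thus not far from those of all probes. In EN the 10 subunits had a median change of -0.24 (1 W), -1.03 (3 W) and -0.49 (5 W), beside 0.06, 0.04 and 0.04 over all probes, and in AN of -0.22, -0.7 and -0.61, beside 0.02, 0.01 and 0.03. The 2 series of age comparisons each share their P0 arrays. All 3 W arrays lay on a single slide that held no P0 array, and with the slide as a fixed block 3 of 10 were called in EN at 3 W (Cacna1b, Cacna1e and Cacna2d2) and 1 of 10 in AN (Cacna1a), beside 41.8 and 39.7% of all probes. As a random block the slide left 4 (with Cacna1i) and 2 (with Cacna1g). For 3 W no value within a slide can be had.

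**Figure D3:**
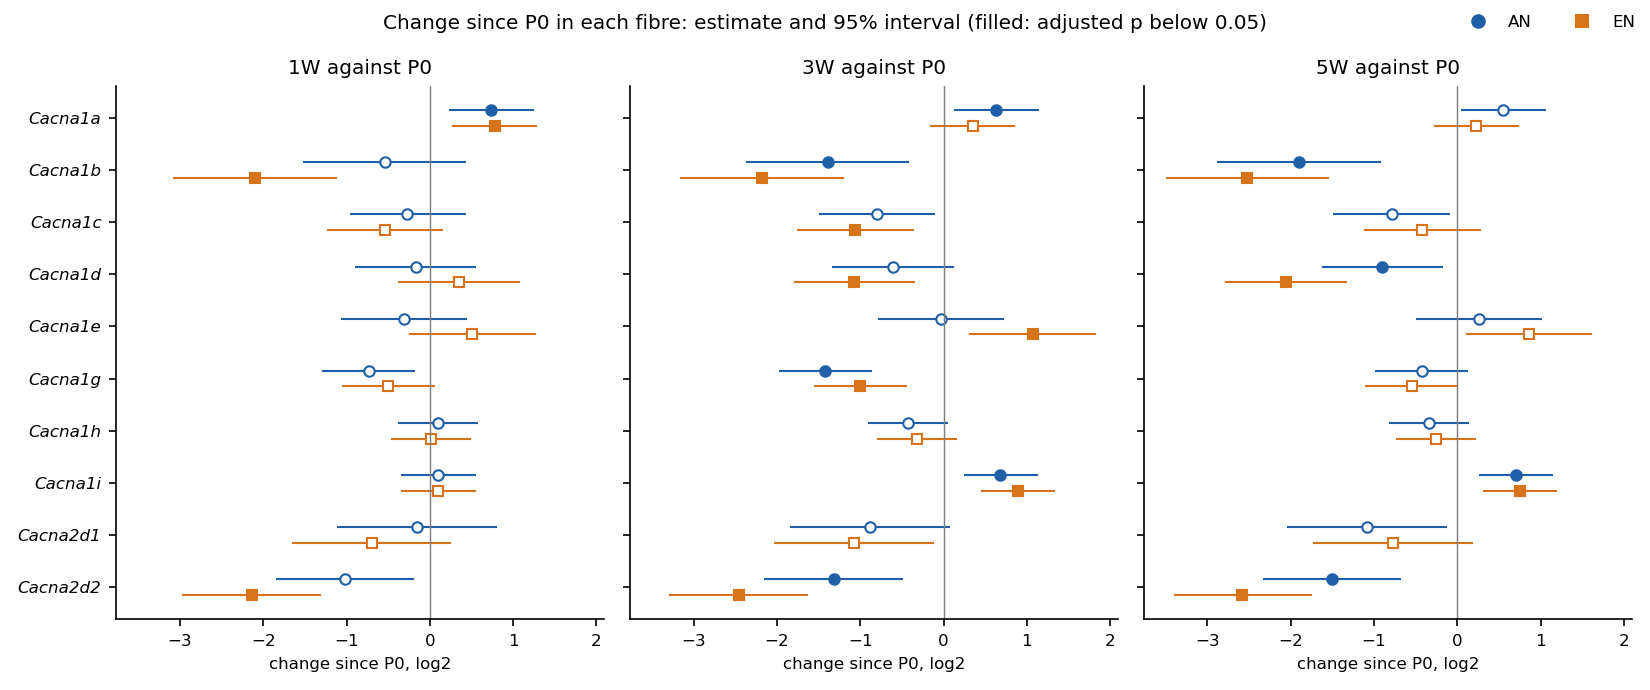
Change since P0 on the log2 scale (x axis) for each subunit at 1 W, 3 W and 5 W in AN (blue circles) and EN (orange squares); points are estimates from 3 against 3 arrays, lines 95% confidence intervals, and filled points have an adjusted p below 0.05. Cacna1b and Cacna2d2 reach -2.52 and -2.58 in EN at 5 W, and Cacna1i is the subunit with filled points to the right of 0 in both fibres at 3 W and 5 W.

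The difference between the fibres was also tested for a change since P0. No subunit was called in any of these 3 interaction contrasts in limma, where 0.0632, 0.615 and 1.14% of all probes were called at 1 W, 3 W and 5 W. One subunit at each age had an unadjusted p below 0.05: Cacna1b at 1 W (1.55, standard error (SE) 0.66), Cacna1e at 3 W (-1.10, SE 0.51) and Cacna1d at 5 W (1.16, SE 0.49). With the replicate block Cacna1e was called at 3 W, beside 4.12% of all probes, and with the slide as a fixed block Cacna1d at 5 W (adjusted p = 0.04483). A fall that was called in EN and not in AN is therefore not by itself a difference between the fibres.

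Among the release-coupled channels, Cacna1b moved furthest. It encodes the pore of the N-type channel, the target of ω-conotoxin and a main calcium source at the central terminals of sensory neurons. The probe that stands for it and that for Cacna2d2, the α2δ subunit that follows it most closely below, are shown by their first 30 bases, since the largest changes rest on these 2 probes; by the array's annotation they lie at chr2:24461313-24461342 on the minus strand and chr9:107431245-107431274 on the plus strand of mm9.
Cacna1b: tttctgtgtcttgtatgcaatgttcctgta
Cacna2d2: tgtcagctgtgtcctgtgggggcgtgtgtg

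In EN, Cacna1b measured 9.77, 10.06 and 10.39 at P0, 8.10, 7.48 and 8.33 at 1 W, 7.82, 7.95 and 7.92 at 3 W, and 7.54, 6.97 and 8.16 at 5 W. Every later EN array lay below every P0 array, so the main drop fell within the first week. It fell by 2.10 (SE 0.47, adjusted p = 0.002744, limma with Benjamini-Hochberg adjustment) at 1 W, by 2.18 at 3 W and by 2.52 (5.72-fold, adjusted p = 0.0001725) at 5 W. In AN it measured 10.12, 10.97 and 10.01 at P0, 9.67, 9.64 and 10.15 at 1 W, 8.18, 8.30 and 10.45 at 3 W, and 8.36, 9.06 and 7.97 at 5 W. The AN arrays overlapped between P0 and 1 W and no longer overlapped at 5 W. The change in AN was -0.54 (adjusted p = 0.4561) at 1 W, -1.39 (adjusted p = 0.01853) at 3 W and -1.90 (adjusted p = 0.002231) at 5 W. The 3 W value in AN lost its call with the replicate block (adjusted p = 0.05634) and with the slide as a fixed block (adjusted p = 0.1586), and it became -2.12 without the array that stood apart.

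The fibres were apart in Cacna1b at 1 W, when all 3 AN arrays (9.64 to 10.15) lay above all 3 EN arrays (7.48 to 8.33). The difference was 1.85 (SE 0.47, 95% interval 0.87 to 2.83), or 3.60-fold, with an adjusted p of 0.0296 in limma and of 0.03707 with the block, and AN was higher in 3 of 3 pairs. This call was lost when any 1 AN array or the first or second EN array of that age was left out, while the estimate stayed between 1.60 and 1.94. At 3 W the difference was 1.08 (adjusted p = 0.2007), of which 0.35 remained without the array that stood apart, and at 5 W it was 0.91 (adjusted p = 0.2842). In a bulk sample, fewer cells that carry a transcript and less of the transcript per cell cannot be told apart. Within slides that held both ages, Cacna1b in EN changed by -1.66 and -1.89 from P0 to 1 W and by -3.25 from P0 to 5 W, and in AN by -0.45, -0.34 and -1.43.

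Ordered by level, Cacna1b was highest in AN at P0 (10.36), then EN at P0 (10.07), AN at 1 W (9.82), AN at 3 W (8.98), AN at 5 W (8.46), EN at 1 W (7.97), EN at 3 W (7.89) and EN at 5 W (7.56), and every neighbouring pair overlapped. Its 2 other tested probes were much dimmer, and 1 of them, 0.866 kb away, did not follow. This probe stayed between 6.74 and 7.12 in the EN means, with changes of 0.09 at 1 W and 0.08 at 5 W against the falls of the brighter probe. The other, 0.714 kb away, moved with the main probe (r = 0.842 over the 24 arrays) and gave 1.87 for AN minus EN at 1 W (adjusted p = 0.06944, or 0.02828 with the replicate block) and -1.60 for EN since P0 (adjusted p = 0.03831, or 0.06185 with the block), but no EN array at 1 W was well above background in it, so AN was at least 2.08-fold higher there. The remaining 3 of its 6 probes did not pass the filter on dim signal. The genes whose pattern came closest over the 24 arrays were Pcdha8 (r = 0.977), Camk4 (r = 0.972) and Pfkp (r = 0.969).

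Cacna1a, which encodes the pore of the P/Q-type channel, the main trigger of release at the mature neuromuscular junction, rose in the first week in both fibres. In AN it measured 10.84, 10.74 and 10.14 at P0 and 11.58, 11.47 and 10.90 at 1 W, and in EN 10.85, 10.76 and 10.37 at P0 and 11.70, 11.53 and 11.10 at 1 W. All 1 W arrays of a fibre lay above all its P0 arrays. The rise at 1 W was 0.74 (SE 0.24, adjusted p = 0.03522) in AN and 0.78 (SE 0.24, adjusted p = 0.02288) in EN, each about 1.7-fold. It was 0.63 (adjusted p = 0.03848) in AN at 3 W and 0.55 (adjusted p = 0.068, or 0.04505 with the replicate block) at 5 W, and 0.35 and 0.23 in EN, neither called. The 3 W value in AN was 0.55 with an adjusted p of 0.1027 without the array that stood apart. The fibres did not separate at any age, with differences between -0.13 and 0.23. Its brightest other probe rose by 0.46 in AN and 0.51 in EN at 1 W and was called at every age in both fibres. The means ran from 10.57 in AN at P0 to 11.44 in EN at 1 W with every neighbouring pair overlapping, and the closest patterns were those of Klhdc8b (r = 0.858), Nprl3 (r = 0.858) and Slc26a6 (r = 0.855).

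Cacna1e, the pore of the R-type channel, went the other way from Cacna1b in EN. Its EN values were 7.68, 7.58 and 6.51 at P0, 7.93, 8.09 and 7.27 at 1 W, 8.56, 8.34 and 8.07 at 3 W, and 8.20, 8.33 and 7.81 at 5 W. All EN arrays at 3 W and 5 W lay above those at P0, and the rise was 1.07 (SE 0.36, adjusted p = 0.01822) at 3 W and 0.86 (adjusted p = 0.05284, or 0.03261 with the replicate block) at 5 W. In AN it measured 7.93, 7.79 and 6.98 at P0, 7.84, 7.72 and 7.04 at 3 W and 7.89, 8.50 and 7.09 at 5 W, with overlap throughout and changes of -0.03 and 0.26. At 3 W every AN array (7.04 to 7.84) was below every EN array (8.07 to 8.56). That difference was -0.79 (SE 0.36, adjusted p = 0.2336), with AN lower in 3 of 3 pairs, and it was called with the replicate block (adjusted p = 0.007828). It was -0.54 without the array that stood apart. The other tested probe gave -1.06 for the same difference (adjusted p = 0.1227, or 0.0003852 with the replicate block) and 1.07 for the rise in EN at 3 W (adjusted p = 0.0261, or 0.2005 with the slide as a fixed block, which made it 0.75). Levels ran from 7.25 in EN at P0 to 8.32 in EN at 3 W, neighbours overlapping, and the closest patterns were those of Camk1d (r = 0.836), D330022H12Rik (r = 0.83) and 9330162012Rik (r = 0.812).

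The L-type channels were represented by Cacna1c, the pore of the cardiac and smooth muscle channel that neurons use as well, and Cacna1d, the pore of the L-type channel that opens at more negative voltages. By its main probe alone, Cacna1d carried the fibre difference at 5 W. Its main probe and another that ends in a stop codon after 19 open codons are shown because they disagree; capitals mark the stop codon. In mm9 they lie at chr14:31163447-31163476 and chr14:30855259-30855318, both on the minus strand.
Cacna1d, main probe, first 30 bases: ggataggtctgaagctgttattgttttggg
Cacna1d, second probe: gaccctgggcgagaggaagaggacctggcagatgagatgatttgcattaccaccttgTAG

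At 5 W Cacna1d measured 6.92, 7.12 and 5.79 in AN and 5.97, 5.25 and 4.90 in EN, and the lowest AN array lay below the highest EN array. The difference was 1.24 (SE 0.35, 2.35-fold, adjusted p = 0.03815, and 0.00477 with the block), with AN higher in 3 of 3 pairs. It was lost when the first or second AN array or EN array 2 or 3 of that age was left out, with estimates of 0.98 to 1.17. Only 1 of the 3 EN arrays at 5 W was well above background, so the EN level there is near the limit of the probe. In EN the gene had measured 7.56, 7.64 and 7.09 at P0, 8.04, 7.92 and 7.37 at 1 W and 6.25, 6.30 and 6.53 at 3 W. Its EN arrays at 3 W and 5 W lay below all P0 arrays, and it fell by 1.07 (adjusted p = 0.01421) at 3 W and by 2.06 (SE 0.35, adjusted p = 6.629e-05) at 5 W. With the slide as a fixed block the 3 W change was -0.10 (adjusted p = 0.8328). In AN, from 8.03, 7.26 and 7.23 at P0, it fell by 0.90 (adjusted p = 0.03869) at 5 W, a call lost without the first P0 array (-0.64) or without the third 5 W array (-0.49), and with the slide as a fixed block (-0.56, adjusted p = 0.05928). The second probe gave -0.94 for AN minus EN at 5 W (adjusted p = 0.2938, or 0.02655 with the replicate block) and 0.27 for EN since P0 (not called), both opposite in sign to the main probe. The remaining probe gave 0.43 and -0.88, the latter called. The main probe was designed on a cDNA sequence, the second and the remaining probe on RefSeq mRNAs, 308.2 and 309.6 kb away. The means ran from 7.78 in EN at 1 W to 5.38 in EN at 5 W, and the step from EN at 3 W (6.36) to EN at 5 W was the 1 neighbouring pair without overlap. Pan2 (r = 0.908), Syn3 (r = 0.907) and Rnf157 (r = 0.903) had the closest patterns.

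Cacna1c measured 10.15, 10.19 and 10.26 in EN at P0, 9.70, 9.80 and 9.47 at 1 W, 9.22, 8.91 and 9.29 at 3 W and 9.99, 9.68 and 9.67 at 5 W. It reached its lowest level at 3 W and was partly back at 5 W, with changes of -1.06 (SE 0.33, adjusted p = 0.01179) and -0.42. The 3 W call was lost with the slide as a fixed block (adjusted p = 0.3551). In AN it measured 10.29, 10.67 and 10.16 at P0 and 9.05, 8.95 and 10.73 at 3 W, so that 1 array decided the AN value. The change was -0.80 (adjusted p = 0.0514) with that array and -1.38, with a call, without it. No AN-EN difference was called, the largest being 0.45 at 1 W. The other tested probe gave -0.35 in EN at 3 W, not called. Levels ran from 10.37 in AN at P0 to 9.14 in EN at 3 W, all neighbours overlapping, and the closest pattern over the 24 arrays was that of another subunit, Cacna2d1 (r = 0.944), ahead of Ica1 (r = 0.915) and Mllt11 (r = 0.913).

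The T-type genes differed from each other. By their main probes, Cacna1g fell, Cacna1i rose and Cacna1h was not called in any comparison. A second probe of Cacna1g that ends in the stop codon, in capitals after 19 open codons, is shown because it moved with the main probe. The Cacna1h probe is shown because the level of that gene rests on it, and for Cacna1i both probes are shown because they opposed each other; the second holds the polyadenylation signal AATAAA, in capitals. In mm9 they lie at chr11:94270459-94270518 (minus), chr17:25521284-25521343 (minus), chr15:80225995-80226024 (plus) and chr15:80228682-80228711 (plus).
Cacna1g, second probe: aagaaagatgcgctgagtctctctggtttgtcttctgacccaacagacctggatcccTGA
Cacna1h: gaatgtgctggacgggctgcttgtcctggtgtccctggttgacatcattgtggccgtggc
Cacna1i, main probe, first 30 bases: aggcacagctggcctccggcttcggctcct
Cacna1i, second probe, last 30 bases: cgttgttttgAATAAAaccccagaaacgtg

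Cacna1g measured 9.15, 9.21 and 9.04 in AN at P0, 8.34, 8.24 and 8.62 at 1 W, 7.90, 7.71 and 7.53 at 3 W and 8.52, 9.51 and 8.09 at 5 W. In EN it measured 9.12, 9.37 and 8.85 at P0, 8.45, 8.52 and 8.87 at 1 W, 8.49, 7.86 and 7.99 at 3 W and 8.81, 8.33 and 8.55 at 5 W. Both fibres were lowest at 3 W, where no array overlapped P0. The fall at 3 W was 1.42 in size in AN (SE 0.27, adjusted p = 0.0002209) and 1.00 in EN (SE 0.27, adjusted p = 0.004025), and neither was called with the slide as a fixed block (adjusted p = 0.08432 and 0.3771), whereas as a random block it left the AN call (adjusted p = 0.007928). At 5 W the changes were -0.43 and -0.55, neither called. The second probe fell by 1.85 in AN and by 1.2 in EN at 3 W, both called. Levels ran from 9.13 in AN at P0 to 7.71 in AN at 3 W with every neighbouring pair overlapping. Tmem268 (r = 0.854), Dnah6 (r = 0.853) and Gdf5 (r = 0.85) had the closest patterns.

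By its main probe, Cacna1i rose late in both fibres. In EN it measured 6.64, 6.45 and 6.50 at P0, 6.79, 6.66 and 6.43 at 1 W, 7.41, 7.38 and 7.48 at 3 W and 7.11, 6.93 and 7.81 at 5 W. In AN it measured 6.72, 6.28 and 6.18 at P0, 6.61, 6.59 and 6.29 at 1 W, 7.16, 7.34 and 6.72 at 3 W and 7.12, 6.81 and 7.35 at 5 W. Every EN array at 3 W and 5 W lay above the P0 arrays, whereas in AN the lowest 3 W array was level with the highest P0 array. The rise was 0.89 (SE 0.21, adjusted p = 0.001703) and 0.75 (adjusted p = 0.005856) in EN at 3 W and 5 W, and 0.68 (adjusted p = 0.01177) and 0.70 (adjusted p = 0.009691) in AN. With the slide as a fixed block the 3 W calls were lost (adjusted p = 0.2658 in EN and 0.7914 in AN), and as a random block it left the EN call (adjusted p = 0.03325). The second probe went the other way in EN. It measured 6.17, 6.56 and 6.13 at P0 against 5.14, 5.53 and 5.10 at 5 W, a change of -1.02 (adjusted p = 0.04414), and was higher in AN than in EN by 1.57 (adjusted p = 0.03035) at 3 W and 1.90 (adjusted p = 0.008088) at 5 W, while the main probe gave -0.35 and -0.19. Its AN arrays measured 6.30, 6.62 and 7.78 at 3 W, the last being the array that stood apart, and were spread from 6.21 to 8.44 at 5 W, where 1 of 3 EN arrays was well above background. A direction for Cacna1i over time in EN and between fibres therefore depends on the probe. The main probe ran from 6.39 in AN at P0 to 7.42 in EN at 3 W, neighbours overlapping, and Atrx (r = 0.945), Hyal2 (r = 0.941) and Oip5os1 (r = 0.937) had the closest patterns.

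Cacna1h, the T-type pore prominent in mechanoreceptive sensory neurons, had the narrowest range of the 10 genes, from 9.30 in AN at 1 W to 8.76 in AN at 3 W. It measured 9.52, 8.96 and 9.09 in AN at P0 and 9.60, 9.07 and 9.18 in EN, and 8.82, 8.92 and 8.82 in AN and 8.79, 9.26 and 9.01 in EN at 5 W. In AN all 3 W and 5 W arrays were below the P0 arrays. The changes there were -0.43 (95% interval -0.91 to 0.05) and -0.34 (-0.82 to 0.14), neither called, and no AN-EN difference exceeded 0.20 in size. The other tested probe gave changes of 0.08 and 0.2. The lowest neighbouring pair, AN at 5 W and AN at 3 W, had means of 8.85 and 8.76 and, before rounding, no overlap. Smyd1 (r = 0.884), Arfip1 (r = 0.862) and Wsb2 (r = 0.86) had the closest patterns.

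The α2δ subunits, the binding sites of gabapentin, were represented by Cacna2d1 and Cacna2d2. Cacna2d2 fell as Cacna1b did. In EN it measured 10.21, 10.95 and 11.01 at P0, 8.10, 8.32 and 9.34 at 1 W, 8.34, 8.19 and 8.26 at 3 W and 8.27, 8.21 and 7.96 at 5 W. No later EN array reached the lowest P0 array. The fall was 2.14 in size (SE 0.40, adjusted p = 0.0006575) at 1 W, and it reached -2.46 (adjusted p = 4.372e-05) at 3 W and -2.58 (5.96-fold lower, adjusted p = 2.295e-05) at 5 W. In AN it measured 10.53, 11.13 and 10.81 at P0, 9.64, 9.73 and 10.03 at 1 W, 9.19, 9.04 and 10.28 at 3 W and 9.06, 10.33 and 8.57 at 5 W. All later AN arrays were also below the P0 arrays. The change was -1.02 (adjusted p = 0.0727) at 1 W, -1.32 (adjusted p = 0.009185) at 3 W, -1.71 without the array that stood apart, and -1.51 (adjusted p = 0.00373) at 5 W. The 3 W value lost its call with the slide as a fixed block (adjusted p = 0.3634).

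From 1 W on every AN array of Cacna2d2 lay above every EN array of its age. The difference was 1.21 (SE 0.40, adjusted p = 0.1096) at 1 W, 1.24 (adjusted p = 0.07383) at 3 W and 1.17 (adjusted p = 0.08686) at 5 W, each about 2.3-fold, and AN was higher in 3 of 3 pairs at each age. With the replicate block the adjusted p values were 0.03681, 0.02148 and 0.02493. At 3 W the difference was 0.85 without the array that stood apart. The change of this difference since P0 was between 1.07 and 1.14 and was not called (adjusted p of 0.5312 to 0.7614). Its 3 W value includes the array that stood apart and is smaller without it. Within slides, Cacna2d2 in EN changed by -2.11 and -1.64 to 1 W and by -2.77 to 5 W, and in AN by -0.89, -0.94 and -0.64. Its order was AN at P0 (10.82), EN at P0 (10.73), AN at 1 W (9.80), AN at 3 W (9.50), AN at 5 W (9.32), EN at 1 W (8.59), EN at 3 W (8.26) and EN at 5 W (8.15), and the step of 0.93 after P0 was the 1 neighbouring pair without overlap. No other probe of the gene was bright enough to test. B4galnt4 (r = 0.972), Ina (r = 0.971) and Ccdc184 (r = 0.969) had the closest patterns, and r with Cacna1b was 0.925 over the same 24 arrays.

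The promoters of this pair, the 250 bases before the RefSeq start on GRCm38.p6, are shown because the 2 genes moved together; capitals mark GGGCGG or its reverse CCGCCC, counted on both strands. Promoters were matched for 7 of the 10 genes. Cacna1b (chr2:24763153-24763402, minus) held 3 such motifs and Cacna2d2 (chr9:107399630-107399879, plus) held 1, and 32.7% of 32851 mouse promoters of the same length held at least 1. Other subunit genes held such motifs too, with 6 in Cacna2d1, 6 in 1 promoter of Cacna1c and 5 in 1 of Cacna1d.
Cacna1b promoter: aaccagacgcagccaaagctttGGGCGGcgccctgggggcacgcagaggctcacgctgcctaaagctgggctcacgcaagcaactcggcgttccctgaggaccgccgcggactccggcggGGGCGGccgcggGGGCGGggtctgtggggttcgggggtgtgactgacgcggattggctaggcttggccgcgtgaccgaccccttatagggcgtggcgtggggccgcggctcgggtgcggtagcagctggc
Cacna2d2 promoter: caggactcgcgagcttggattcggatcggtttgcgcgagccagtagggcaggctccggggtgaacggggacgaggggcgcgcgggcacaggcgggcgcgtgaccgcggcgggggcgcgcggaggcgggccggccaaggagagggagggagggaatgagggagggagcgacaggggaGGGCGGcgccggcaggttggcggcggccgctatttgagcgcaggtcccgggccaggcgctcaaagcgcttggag

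Cacna2d1, the α2δ subunit of muscle, brain and sensory neurons, showed 2 opposite patterns by probe. Its main probe measured 10.33, 10.48 and 10.57 in EN at P0, 9.68, 9.82 and 9.80 at 1 W, 9.43, 9.23 and 9.51 at 3 W and 9.70, 9.56 and 9.81 at 5 W. The EN arrays did not overlap between P0 and any later age, yet the changes of -0.70, -1.07 (adjusted p = 0.05552) and -0.77 were not called in the fit, which estimates 1 spread over all groups, and AN ran from 8.71 to 11.20 at 3 W. Without the array that stood apart the change at 3 W was -1.07 in EN and -1.67 in AN, both called, and AN minus EN at 3 W went from 0.22 to -0.57, not called. In AN the change at 5 W was -1.08 (adjusted p = 0.05621). Another probe rose instead. It measured 6.87, 6.80 and 6.91 in EN at P0 and 7.68, 7.83 and 7.73, then 8.32, 8.24 and 8.52, then 8.51, 7.87 and 8.30 at the later ages, so that all later EN arrays lay above P0, with changes of 0.89, 1.5 and 1.36 in EN and 1.09 and 0.55 in AN at 3 W and 5 W, all called. A neighbouring probe gave 0.63, 1.46 and 1.36 in EN and 0.85 in AN at 3 W, also called. Both were designed on Ensembl transcripts and lie 105.8 and 106.0 kb from the main probe. Both were lower in AN than in EN at 5 W, by -1.13 (adjusted p = 0.003382) and -1.28 (adjusted p = 0.001057), where the main probe gave -0.28 (adjusted p = 0.7847). With the replicate block they were also called lower in AN at 1 W and 3 W. Of the other 3 probes, 1 was called in EN at 3 W (-1.32) and in AN at 3 W (-1.87) and 5 W (-1.07), and another in EN at 5 W (-1.06, adjusted p = 0.0241, or 0.08051 with the replicate block), all of them falls. The main probe and the first of these are shown for comparison, at chr5:15880152-15880181 and chr5:15774333-15774362 of mm9, both on the plus strand. Levels of the main probe ran from 10.49 in AN at P0 to 9.39 in EN at 3 W, and AN and EN at 1 W was the 1 neighbouring pair without overlap. Mapk8ip2 (r = 0.947), Cacna1c (r = 0.944) and Mllt11 (r = 0.937) had the closest patterns.
Cacna2d1, main probe, first 30 bases: ccttattatgttctctggacacttttgtgg
Cacna2d1, rising probe, first 30 bases: ggaatagcttaaaatgttatccttggcaga

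**Figure D4:**
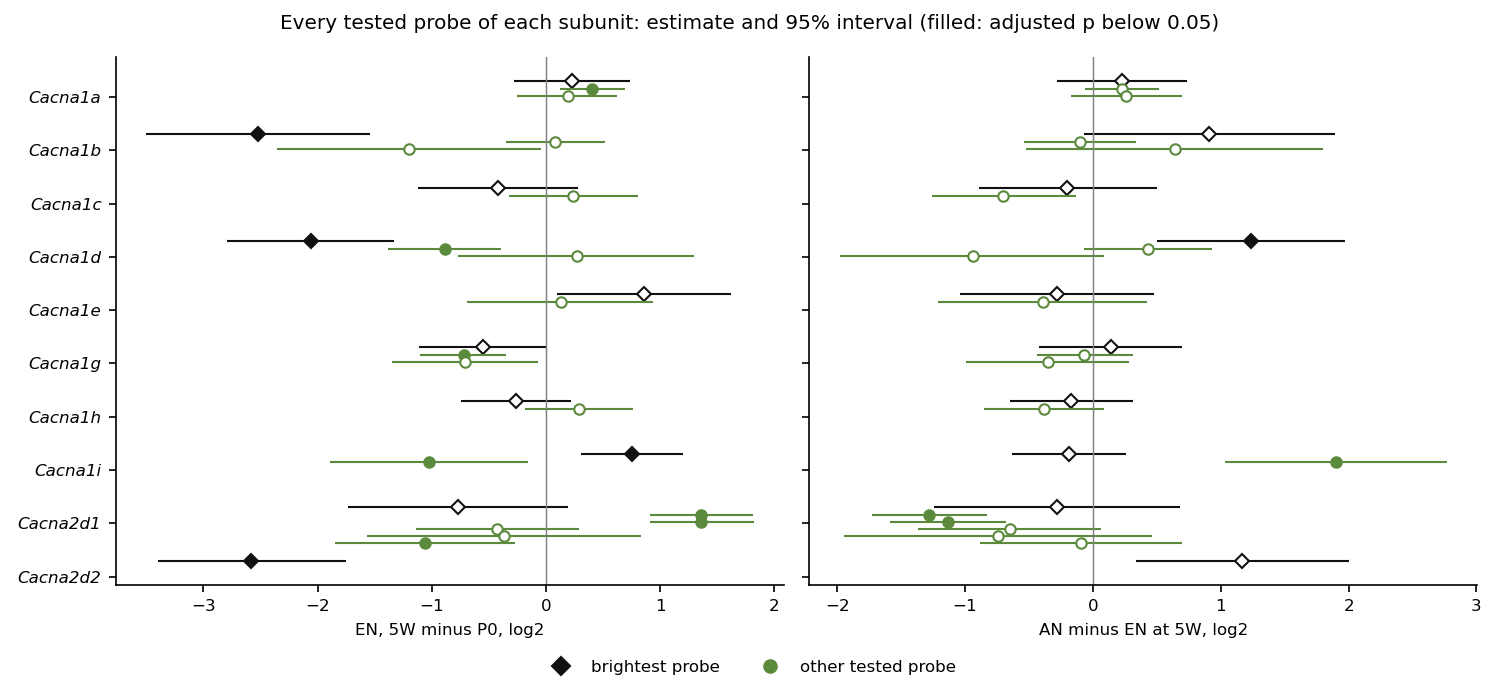
Every tested probe of each subunit, with the change in EN from P0 to 5 W (left) and the difference of AN minus EN at 5 W (right) on the log2 scale (x axes); black diamonds are the brightest probe of the gene, green circles the others, lines are 95% confidence intervals and filled symbols have an adjusted p below 0.05. Filled symbols on opposite sides of 0 occur for Cacna1i (0.75 and -1.02) and among the probes of Cacna2d1 in the left panel, and Cacna2d2 has a single tested probe.

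Levels of Cacna1b and Cacna2d2 moved with those of most neuronal markers. Rbfox3 measured 11.72, 12.52 and 11.12 in AN and 11.33, 11.63 and 11.77 in EN at P0, but 11.94, 12.18 and 11.94 in AN and 7.30, 7.75 and 9.19 in EN at 1 W. Every EN array at 1 W was thus below every P0 array in this marker, whereas the AN arrays overlapped. At 1 W 11 of 14 tested sensory neuron markers were called higher in AN and none lower, with a median difference of 4.69, and at 3 W and 5 W 3 and 2 were. Within EN 10 of 14 were called lower than P0 at each of 1 W, 3 W and 5 W, with medians of -3.59, -3.7 and -3.95, and 1 was called higher at 3 W. Within AN, where Cacna1b and Cacna2d2 also fell, none was called at 1 W, 1 was higher and 1 lower at 3 W, and 1 was higher and 5 lower at 5 W (medians 0.39, -0.87 and -2.08). The summed signal of the 15 markers with a probe ran from 113600 to 132700 in AN and from 15450 to 41110 in EN at 1 W, against 54110 to 149800 and 64910 to 78580 at P0, and Tlx3 was not well above background on any EN array up to 3 W or any AN array at 5 W. Over the 24 arrays, which share fibre and age as sources of variation, r with Rbfox3 was 0.917 for Cacna1b, 0.899 for Cacna2d2, 0.703 for Cacna2d1, 0.688 for Cacna1c, 0.444 for Cacna1d, 0.25 for Cacna1g, 0.108 for Cacna1h, -0.16 for Cacna1a, -0.555 for Cacna1e and -0.625 for Cacna1i. Not every marker of the list went along, since r was -0.4 and -0.365 for Pou4f1 with Cacna1b and Cacna2d2, 0.427 and 0.326 for P2rx3 and 0.383 and 0.327 for Prrxl1. The array that stood apart had the highest Rbfox3 of all and is high for Cacna1b as well. The part of neuronal cell bodies in these results was not tested.

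**Figure D5:**
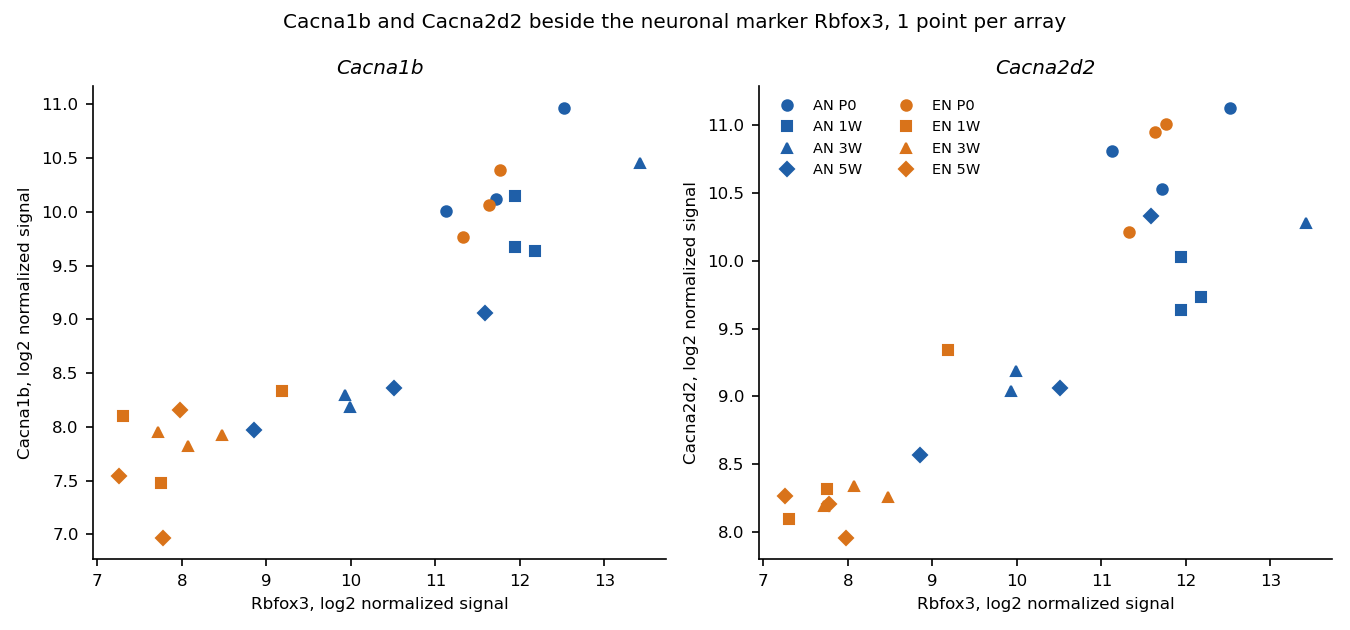
Log2 normalised signal of Cacna1b (left y axis) and Cacna2d2 (right y axis) beside that of Rbfox3 (x axes), 1 point per array, blue for AN and orange for EN, with circles for P0, squares for 1 W, triangles for 3 W and diamonds for 5 W. EN arrays after P0 sit at the lower left, the P0 arrays of both fibres at the upper right, and the AN triangle at 13.42 is the array that stood apart.

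Other marker lists moved as well, and their part in the subunit results was likewise not tested. Beside the counts of these lists and of the neuronal one, 27.1, 55.0 and 54.1% of all probes were called since P0 in EN at 1 W, 3 W and 5 W. In AN the shares were 21.7, 51.7 and 50.6%, and between fibres 0.739% at P0 and 4.0, 5.89 and 6.76% at the later ages. Of 8 skeletal muscle markers 6 were called lower in EN at 1 W than at P0 (median -3.66) and 5 in AN (median -3.21), and their summed signal ran from 73010 to 216300 in EN at P0 and from 7298 to 12640 at 1 W. Of 4 satellite glia markers 3 were called higher in AN than in EN at 1 W, 3 W and 5 W. Of 8 tested motor neuron markers 3 were called higher and 1 lower in AN at 1 W, and no array held Mnx1 well above background. All 5 macrophage markers were called higher in EN at each age than at P0, and 3, 4 and 4 in AN. Of the 9 markers of myelinating Schwann cells 6, 6 and 7 were called higher than P0 in EN and 8, 7 and 9 in AN at 1 W, 3 W and 5 W, and 3 were lower in AN than in EN at P0; their summed signal ran from 539100 to 679900 in AN and from 813800 to 882500 in EN at P0. Of 7 oligodendrocyte markers 5 were called higher than P0 in AN at 5 W, and 2 higher and 1 lower in EN. Of 6 astrocyte markers 3 were higher in AN than in EN at 1 W and at 5 W. Of 7 smooth muscle and pericyte markers 4 rose and 2 fell in EN at each later age, and none differed between fibres. Of 5 endothelial markers 1, 2 and 1 were lower in AN than in EN at 1 W, 3 W and 5 W, and of 5 fibroblast markers 1, 3 and 2. Of 4 melanocyte markers 1 was higher in AN at 1 W, 3 W and 5 W, and 1 was lower at 3 W and at 5 W.

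The remaining subunits of the channel family were examined as a list of 16 genes, of which 13 were tested and Cacnb2, Cacng3 and Cacng8 were not. None was called between fibres at P0. At 1 W 2 were higher in AN and 1 lower, at 3 W 1 was higher and at 5 W 3 were higher. The shares of all probes called at these ages were 4.0, 5.89 and 6.76%. Cacng5, a γ subunit gene whose product also associates with glutamate receptors, gave the widest gap: 7.38, 7.76 and 7.76 in AN and 2.55, 2.54 and 4.92 in EN at 1 W. Its EN arrays were not well above background at any age after P0, so AN was at least 6.76-fold higher at 1 W, at least 4.70-fold at 3 W and at least 1.98-fold at 5 W (adjusted p = 0.002482, 0.0006002 and 0.004276), the bound taken against the lowest signal well above background on each array. Without the array that stood apart the bound at 3 W was 2.72-fold (adjusted p = 0.003549). Cacng4 was higher in AN by 1.18 at 1 W and 1.05 at 5 W. Cacna1s, the L-type pore of skeletal muscle, was lower in AN by 1.28 in size at 1 W (difference -1.28, adjusted p = 0.01185). Cacna2d3, a further α2δ gene, measured 7.59, 9.00 and 6.12 in AN and 4.30, 5.41 and 5.02 in EN at 5 W, a difference of 2.66 (adjusted p = 0.02169) with no overlap, but only 1 of the 3 EN arrays was well above background. Over time, 3 of 13 rose and 5 fell in EN at 3 W, and 4 rose and 6 fell at 5 W. In AN 3 rose and 2 fell at each of these ages. At 1 W none rose and 4 fell in EN, and none rose and 2 fell in AN. Of all probes, 27.1, 55.0 and 54.1% were called in EN at 1 W, 3 W and 5 W, and 21.7, 51.7 and 50.6% in AN.

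A second list held 21 genes for proteins that bind or regulate these channels, of which 19 were tested and Rem2 and Tspoap1 were not. None was called between fibres at P0, 4 were higher and 1 lower in AN at 1 W, 2 higher and 1 lower at 3 W and 2 higher and 2 lower at 5 W. Rims2, which tethers channels to release sites, was higher in AN by 1.83, 2.15 and 1.74 at 1 W, 3 W and 5 W, and Stac2, an adaptor of L-type channels, by 2.03, 1.99 and 2.55. At 3 W these differences were 1.76 (adjusted p = 0.005298) and 1.07 (adjusted p = 0.02534) without the array that stood apart, and at 5 W 2 of 3 EN arrays were well above background for Rims2 and 1 of 3 for Stac2. Stac was higher by 2.94 and Cabp1, a calcium sensor that modulates L- and P/Q-type channels, by 2.43 at 1 W. Thbs4, a thrombospondin and so of the protein family that binds α2δ subunits, went the other way, with differences of -1.19, -1.85 and -1.64, and Thbs3 was lower in AN at 5 W (-0.67). Over time, 3 rose and 4 fell in EN at 1 W, 4 rose and 7 fell at 3 W and 4 rose and 7 fell at 5 W. In AN 1 rose and 3 fell at 1 W, 3 rose and 5 fell at 3 W and 4 rose and 6 fell at 5 W.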

How the data were processed

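Total RNA of AN and EN fibres was hybridised to 24 Agilent 8 × 60 K arrays with Cy3 alone. Per the labels, Agilent Feature Extraction 10.7.1.1 gave the scanner intensity of each spot. The authors quantile normalised these intensities in GeneSpring and deposited a table of log2 values; its columns share a median of 6.32, and each followed its own scanner file (r of 0.992 to 1.0). Centring cannot be recovered beyond that median, and no signal below 2.48 occurs. The deposited scanner intensities were used for background flags, slides and alternatives.

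Control spots were left out and spots of a probe averaged. A probe entered the test if some group had all 3 of its arrays well above background (36409 of 56605). All 8 group means were fitted together in limma 3.58.1 (R 4.3.3, lmFit and eBayes, 16 residual degrees of freedom), with 4 fibre, 6 age and 3 interaction contrasts, and p was adjusted by Benjamini-Hochberg over all tested probes, with a call below 0.05. Fold changes are on the log2 scale of the quantile-normalised values, which assume alike distributions on every array. The fit was tested on simulated data with known changes. Same-numbered AN and EN arrays of an age deviated together in all 12 pairs (r of 0.107 to 0.646), beside -0.467 to 0.116 in the 24 other pairs. Same-numbered arrays also lay on the same of 4 slides, so the numbers were taken to pair the arrays. At 3 W the pairing is least clear, since all arrays shared a slide. There r was 0.184, 0.107 and 0.214 for same numbers and up to 0.116 for different ones. The main fit has no block, because the methods name none, and the blocked value is given where it changes a call.

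The 10 genes and the lists of related genes and markers were chosen with earlier results of these data known. The text names all 10 genes by their highest-mean probe, related genes called between fibres, and for each subunit the 3 probes of other genes with the highest Pearson r. Probe positions are those of the array annotation (mm9), and promoters come from RefSeq (GRCm38.p6). Alternatives were the scaling, background correction, filter, slide, scan day, replicate block, array weights, groups fitted, the methods' rule (unadjusted p below 0.05 and over 2-fold), other probes, and leaving out arrays. Related genes at 3 W without 1 AN array were added after seeing the data. The number of arrays limits the precision.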

Additional observations from a re-analysis of the deposited data

How the results depend on the processing

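Over the alternatives other than a change of probe, 4624 of 4927 values kept direction and side of the threshold, 96 that were called neither before nor after changed sign, 100 lost a call and the others gained one; no called value changed sign. Counts of called subunits moved by over 1.5 times as follows. AN against EN at 1 W went from 1 to 0 with dim probes kept, and to 2 with only the compared groups fitted, slide (fixed or random), scan day, replicate block, array weights or the methods' rule. At 3 W it went from 0 to 1 with the slide (fixed or random) or scan day and to 2 with the replicate block, weights or the methods' rule. At 5 W it went from 1 to 0 with the 75th percentile, normexp, no filter, all 24 arrays above background or only the compared groups, and to 2 with the slide, scan day, replicate block or methods' rule. With all 24 arrays above background that 0 is over 9 tested subunits, because the main Cacna1d probe left the test. EN went from 3 to 5 at 1 W with only the compared groups, and from 7 to 3 at 3 W with the slide fixed or the scan day and to 4 with the slide random. AN at 1 W went from 1 to 2 with normexp, all 24 arrays above background, only the compared groups or the slide random, to 0 without the filter and to 3 with weights. AN at 3 W went from 5 to 2 with only the compared groups or the slide random, to 1 with the slide fixed or scan day and to 3 by the methods' rule, and at 5 W from 4 to 2 with only the compared groups (6 with weights). Calls over all probes moved too: at 3 W between fibres from 2143 of 36409 to 4892 with the slide fixed, 4375 with it random, 4355 with scan day, 7694 with the replicate block and 7594 with weights, and at 5 W from 2462 to 35 with only the compared groups. Interaction counts went from 0 to 1 at each age by the methods' rule, at 3 W with the replicate block and at 5 W with the slide fixed or scan day.

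Leaving out arrays gave counts of 0 to 2 (AN against EN at 1 W), 0 to 1 (3 W), 0 to 3 (5 W), 1 to 4, 4 to 8 and 4 to 6 (EN at 1 W, 3 W and 5 W), 0 to 3, 1 to 6 and 1 to 7 (AN), and 0 for the rest. For the age comparisons that dropped, the lowest counts came without all arrays numbered 1 (in EN also 2); AN at 1 W fell to 0 without those numbered 1, 2 or 3 and without the single arrays named for Cacna1a below. Between fibres the lowest came without all arrays numbered 1 or 2 or without single arrays of that age. Falls of Cacna1b in EN at 3 W and 5 W and in AN at 5 W, of Cacna2d2 in EN at all ages, of Cacna1d in EN at 5 W and the rise of Cacna1i in EN at 5 W kept their call under each scaling, filter, block, weighting and left-out array in which the probe was tested. The main Cacna1d probe, above background on 22 of 24 arrays, was not tested under the filter that asks for all 24. By the methods' rule the rise of Cacna1i (1.685-fold) would not pass, and other probes are given below. Single arrays ended other calls. Cacna1a at 1 W lost its call in EN without the third P0 array (0.64), the first 1 W array (0.65) or the second (0.74), in AN without the third P0 array (0.53), the first 1 W array (0.61) or the second (0.67), and in AN at 3 W without the third P0 array (0.41) or the first 3 W array (0.63). In AN at 3 W Cacna1b lost it without the second P0 array (-1.09) or the first (-0.99) or second (-1.05) 3 W array, Cacna1i without the third P0 array (0.57) or the second 3 W array (0.55), and Cacna2d2 without the second 3 W array (-1.09). Cacna1i in AN lost it at 5 W without the third array (0.58), and in EN at 3 W Cacna1d lost it without the second P0 array (-0.97) and Cacna1e without the third P0 array (0.70) or the first 3 W array (0.95).

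Another probe of the gene kept direction and side of the threshold in 115 of 221 values, changed the sign of 56 that neither probe called, and turned 18 that at least 1 of the probes called. Those 18 were 0.09 and 0.08 for Cacna1b (EN at 1 W and 5 W), -0.94 and 0.27 for Cacna1d (AN against EN and EN at 5 W), 1.57, 1.9, -1.18, -0.95 and -1.02 for Cacna1i (AN against EN at 3 W and 5 W, EN at 1 W, 3 W and 5 W), and, for 2 probes of Cacna2d1, 0.63, 1.46 and 1.36 and 0.89, 1.5 and 1.36 (EN), with 0.85, 1.09 and 0.55 in AN. The cause was not tested. Signal near background limits Cacna1d at 5 W.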
